A study of Mus musculus with 2 samples.

Results

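Open chromatin inside the introns of long genes was examined in the gastrocnemius, the large muscle of the calf. The mice were adult males of the strain B6CASTF1/J aged 18 to 20 months. The assay was DNase-seq, in which the enzyme DNase I cuts DNA where it is not covered by nucleosomes, so that clusters of cuts (peaks) mark open chromatin and short protected stretches inside them (footprints) mark DNA shielded from the enzyme, often by a bound protein. There were 2 samples in 1 group, labelled biological replicates 1 and 2. Their donor label is shared but their biosample labels differ, so the number of animals behind them is uncertain, and no group is compared with another. A region was kept where the merged peaks of the 2 samples overlapped by at least 1 bp. It was counted as an intronic region of a long gene where it lay inside a protein-coding gene of 100 kb or longer (the longest, where genes overlap), overlapped no exon, and had its centre more than 1 kb from every protein-coding start site. Of 74516 regions shared by both samples, 13092 met this rule, or 17.6% (exact 95% interval 17.3 to 17.8%).

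Most of the length of a mammalian gene is intron, and introns of long genes are a known home of enhancers, short stretches of open DNA where transcription factors bind and act on a promoter that can lie far away. In muscle, such factors include the myogenic basic helix-loop-helix proteins, which bind E-boxes, and MEF2, TEAD and nuclear factor I (NFI) proteins. CTCF, a zinc-finger protein that shapes chromatin loops, also binds many intronic sites.

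The strongest regions show what such a stretch of DNA looks like. Each sequence below is a whole region on the plus strand of mm10, read from the RefSeq copy of that build, with the bases under a footprint of both samples in capitals. Apart from Synpo2, each is the region with the highest mean signal rank in its group among those of at most 300 bp, and these groups were set after the values had been seen. The Gphn region (chr12:78350861-78351100) led all regions. The Synpo2 region (chr3:123153441-123153640) stands for the hosts of fibre structure and excitation, where some stronger regions lie on a chromosome whose sequence is not printed here. The Nfib region (chr4:82513201-82513440) led the muscle transcription regulators, and the Igf1r region (chr7:68129101-68129320) the hosts of metabolism and the clock. The Sh3pxd2a region (chr19:47279881-47280100) led the matrix and fibroblast hosts, the Mrc1 region (chr2:14295501-14295660) the immune hosts and the Tenm2 region (chr11:36036421-36036640) the neuronal hosts.
Gphn: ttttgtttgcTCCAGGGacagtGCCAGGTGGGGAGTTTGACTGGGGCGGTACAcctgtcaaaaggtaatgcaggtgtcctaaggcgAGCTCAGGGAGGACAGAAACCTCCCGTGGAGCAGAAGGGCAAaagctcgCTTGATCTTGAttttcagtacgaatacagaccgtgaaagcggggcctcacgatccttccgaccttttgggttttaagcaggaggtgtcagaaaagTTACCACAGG
Synpo2: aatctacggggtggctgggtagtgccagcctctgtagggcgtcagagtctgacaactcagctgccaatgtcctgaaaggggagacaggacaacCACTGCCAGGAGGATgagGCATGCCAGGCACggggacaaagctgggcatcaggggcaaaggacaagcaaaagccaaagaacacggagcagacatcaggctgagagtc
Nfib: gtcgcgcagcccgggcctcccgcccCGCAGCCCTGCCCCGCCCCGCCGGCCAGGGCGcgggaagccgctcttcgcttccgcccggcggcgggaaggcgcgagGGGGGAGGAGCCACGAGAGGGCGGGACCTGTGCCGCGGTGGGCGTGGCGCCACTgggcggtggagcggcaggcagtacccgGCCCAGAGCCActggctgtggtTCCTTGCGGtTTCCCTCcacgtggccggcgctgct
Igf1r: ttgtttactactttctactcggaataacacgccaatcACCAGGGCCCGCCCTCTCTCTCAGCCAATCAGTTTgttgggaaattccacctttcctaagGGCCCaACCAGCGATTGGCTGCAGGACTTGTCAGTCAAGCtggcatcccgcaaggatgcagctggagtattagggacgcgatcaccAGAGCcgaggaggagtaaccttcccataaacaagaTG
Sh3pxd2a: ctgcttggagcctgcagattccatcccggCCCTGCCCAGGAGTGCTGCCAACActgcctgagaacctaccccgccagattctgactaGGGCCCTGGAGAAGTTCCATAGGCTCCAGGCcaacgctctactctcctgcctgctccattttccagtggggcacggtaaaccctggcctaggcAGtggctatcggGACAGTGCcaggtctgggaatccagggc
Mrc1: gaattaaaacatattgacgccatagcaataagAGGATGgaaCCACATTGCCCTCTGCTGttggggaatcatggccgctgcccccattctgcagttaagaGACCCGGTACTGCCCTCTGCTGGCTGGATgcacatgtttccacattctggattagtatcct
Tenm2: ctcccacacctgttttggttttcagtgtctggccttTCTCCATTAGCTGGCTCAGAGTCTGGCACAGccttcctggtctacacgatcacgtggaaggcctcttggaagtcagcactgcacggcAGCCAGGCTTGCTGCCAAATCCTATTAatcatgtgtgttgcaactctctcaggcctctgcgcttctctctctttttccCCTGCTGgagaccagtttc

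In these 7 regions the bases under footprints of both samples ran from 28 of 200 in Synpo2 to 113 of 240 in Nfib, with 101 of 240 in Gphn. Over all 13092 regions 6.83% of the bases lay under footprints of both samples.

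The next sequences are windows of 120 bases centred on a motif match that lay under a footprint of both samples, written along the strand of the match with the match in capitals. They show, for 5 motifs, the match in the region of highest mean signal rank. The myogenic E-box is at chr8:120191338-120191457 (plus strand), inside the predicted gene record Gm20388, which spans many other genes. The NFI motif is at chr19:22916766-22916885 (minus strand) in Trpm3, a cation channel gene. The TEAD match is at chr13:44869636-44869755 (minus strand) in Jarid2, which encodes a partner of the Polycomb repressive complex. The MEF2 match is at chr4:109165581-109165700 (plus strand) in Osbpl9, an oxysterol-binding protein gene, and the glucocorticoid receptor match at chr6:90509255-90509374 (plus strand) in Aldh1l1, a folate enzyme gene. For CTCF the region of highest rank is the Nfib region printed above, where the match on the plus strand is CCACGAGAGGGC.
Myogenic E-box, Gm20388: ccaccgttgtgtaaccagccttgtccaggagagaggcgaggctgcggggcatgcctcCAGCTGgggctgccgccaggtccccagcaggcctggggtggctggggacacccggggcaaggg
NFI, Trpm3: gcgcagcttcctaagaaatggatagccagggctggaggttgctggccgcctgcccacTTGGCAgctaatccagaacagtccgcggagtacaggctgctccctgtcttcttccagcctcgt
TEAD, Jarid2: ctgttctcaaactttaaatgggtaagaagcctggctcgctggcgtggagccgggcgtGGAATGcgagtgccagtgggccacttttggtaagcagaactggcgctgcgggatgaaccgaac
MEF2, Osbpl9: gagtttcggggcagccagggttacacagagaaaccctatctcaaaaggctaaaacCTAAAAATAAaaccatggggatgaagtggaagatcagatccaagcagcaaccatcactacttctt
Glucocorticoid receptor, Aldh1l1: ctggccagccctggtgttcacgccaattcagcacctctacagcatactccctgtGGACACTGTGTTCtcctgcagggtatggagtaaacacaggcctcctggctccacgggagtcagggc

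The labelled tissue was checked on promoters within 1 kb of the start sites of marker genes. Of 8 skeletal muscle markers, 8 had a promoter peak in replicate 1 and 7 in replicate 2, where Myh4, the gene of a fast myosin heavy chain, had none. The 3 endothelial and the 3 fibroblast markers had a peak in both samples. The macrophage markers Ptprc and Csf1r and the satellite cell markers Pax7 and Myf5 had none in either. The deposited peak lists held 131398 peaks in replicate 1 and 91567 in replicate 2. Reads per sample are unknown, and each list has its own scale, so signals are in the authors' unit.

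The intronic regions of long genes were narrow and of moderate signal. The median width was 220 bp, with 5% under 159 bp and 5% over 400 bp. The signal of a region, taken as its strongest peak, had a median of 0.843 in replicate 1 and 0.716 in replicate 2. The range between the 5th and 95th percentiles was 0.325 to 2.55 in replicate 1 and 0.352 to 2.26 in replicate 2. In both samples these medians were below those of the 9779 intronic regions of shorter genes, 1.03 and 0.872. They were also below those of the 24020 intergenic regions over 1 kb from start sites, 0.893 and 0.777, and below the 1.81 and 1.85 of regions at start sites. Regions are not replicates of a condition, so no test was made of these differences. Base composition set the intronic regions apart from start sites but not from other distal regions. Their median GC content was 51.5%, against 53.0% in shorter genes, 51.5% between genes and 63.5% at start sites. The ratio of observed to expected CpG dinucleotides was 0.224, 0.219, 0.245 and 0.748 in the same order. Of the bases of the intronic regions in long genes, 7.78% on average were annotated repeats, against 22.7% in windows 2000 bp away.

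Each sample also has a smaller peak list, and 85860 of its 86830 peaks in replicate 1 and 56950 of 57869 in replicate 2 overlap the larger list. Of the 13092 regions, 7149 (54.6%, interval 53.7 to 55.5%) overlapped a peak of the smaller list in both samples, against 66.1% of all shared regions. A further 33.9% did so in 1 sample and 11.5% in neither. The share was 59.9% in introns of shorter genes and 62.0% between genes. A footprint lay in the region in both samples for 11390 regions (87.0%, interval 86.4 to 87.6%), against 87.2% of all shared regions. The share with a footprint was therefore near the background, while the share on the smaller list was below it.

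The 2 samples ranked the regions alike, less closely than they ranked start sites. The Spearman correlation of signal across the 13092 regions was 0.848, compared with 0.872 across introns of shorter genes, 0.886 between genes and 0.978 at start sites. These are correlations across regions, which share each library and are not independent. After the ratio of the samples was centred on the median of all shared regions, 4.08% of the intronic regions differed by more than 2-fold, against 2.80% of all shared regions. Of these, 481 were higher in replicate 1 and 53 in replicate 2. The counts leaned to replicate 1 in the other distal classes too, with 286 and 34 in introns of shorter genes and 712 and 163 between genes, but not at start sites, with 74 and 114.

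**Figure D1:**
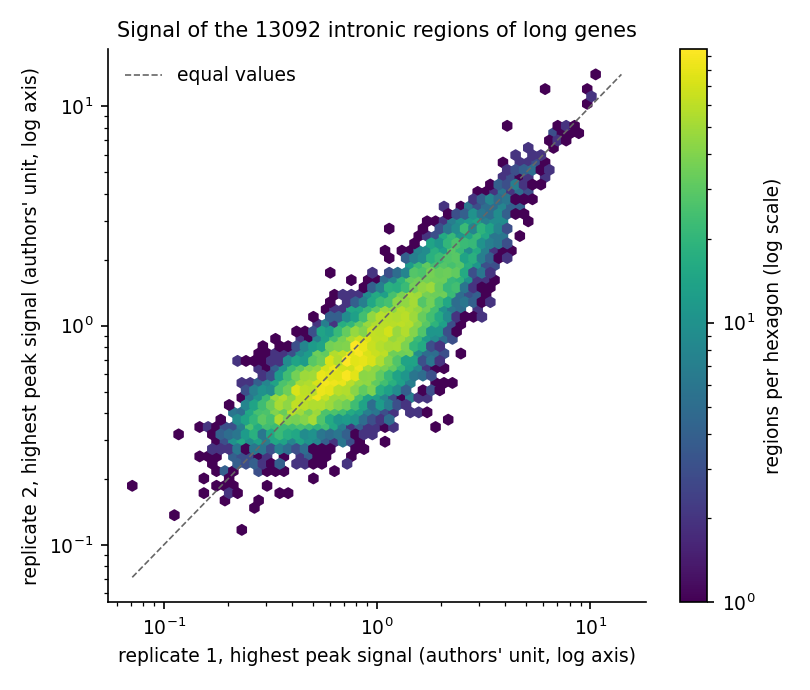
Signal of each of the 13092 intronic regions of long genes in replicate 1 (x axis) and replicate 2 (y axis), both in the authors' unit on log axes, with colour for the number of regions in a hexagon and a dashed line where the values are equal. The cloud follows the line, with Spearman correlation 0.848, and is widest at low signal.

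Replicate 1 added many weak regions that replicate 2 lacked. Of 26972 merged regions with a peak of replicate 1 in these introns, 48.5% were shared, compared with 57.9% of its regions genome-wide. Of 15393 with a peak of replicate 2, 85.1% were shared, compared with 83.5% genome-wide. The unshared regions had a median signal of 0.371 in replicate 1 against 0.843 for the shared ones, and 0.280 against 0.716 in replicate 2. When the peaks of 1 sample alone were classified, replicate 1 gave 27129 regions and replicate 2 gave 15616. The density was then 4.63 and 2.66 per 100 kb of intron, a mean of 3.65 ± 1.39 (SD, n = 2).

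The 10 regions of highest mean rank lay in genes of varied function. Gphn encodes gephyrin, which anchors inhibitory receptors at synapses and makes the molybdenum cofactor. Its region lay in intron 2 of 22, 125 kb from the gene's start, with signals of 10.6 in replicate 1 and 14.0 in replicate 2. The Trpm3 region (chromosome 19, 22916721 to 22916940), in intron 20 of 25, had signals of 10.2 and 11.0. The Jarid2 region (chromosome 13, 44869561 to 44869700), in intron 3 of 17, had 9.69 and 11.7. The region in intron 2 of Igf1r, the receptor of insulin-like growth factor 1, had 8.82 and 8.34 and lay 135 kb from the nearest start site, that of Pgpep1l. Zbtb16 encodes a zinc-finger repressor, and a region in its intron 3 of 6 (chromosome 9, 48737561 to 48737820) had 8.72 and 7.60 and held a TEAD and a glucocorticoid receptor match. These 5 regions were all on the smaller list in both samples and held at least 3 footprints in each.

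Another 4 of the 10 stood closer to start sites of other genes or in unusual gene records. A region in intron 2 of Myo18a, which encodes an unconventional myosin, had signals of 7.94 and 8.27 and lay 5.63 kb from the start site of Gm10277. Both regions in Gm20388 had other genes' start sites as the nearest, Map1lc3b at 4.78 kb (10.3 and 11.5) and Fam92b at 13.9 kb (8.42 and 7.69). The region in Mid1 on the X chromosome, which encodes a microtubule-associated ubiquitin ligase, had signals of 6.32 and 11.8. It was 500 bp wide, with a GC content of 74.0% and 16 and 14 footprints.

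The widest regions had their centres just beyond the 1 kb limit around a start site in 4 of 5 cases. Each of these 4 reached inside that limit. A region in intron 1 of Casz1, a zinc-finger transcription factor gene, spanned 1698 bp with its centre 1.49 kb from the start site, and had signals of 1.10 and 1.04. The regions in Cdk6 (1626 bp, a cell cycle kinase), Bcor (1307 bp, a corepressor) and Rora (1127 bp, a nuclear receptor of the clock) had centres 1.00, 1.5 and 1.08 kb from a start site. The fifth, in the Ugt1a cluster of glucuronidation enzymes, spanned 1260 bp and lay in 9 overlapping gene records.

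Distance to start sites was long for most regions. The median distance to the nearest protein-coding start site was 37.4 kb, and 39.8% of regions were more than 50 kb and 5.13% more than 200 kb away. For 76.4% of regions the nearest start site belonged to the host gene. The 5 farthest were in Csmd1, Dcc, Fhit, Lsamp and Gpc5, at 893, 863, 854, 755 and 739 kb. Their signals were low, from 0.208 to 0.766 in replicate 1 and from 0.296 to 0.470 in replicate 2. The 671 regions over 200 kb from any start site had median signals of 0.624 and 0.537, lower than those of all 13092 regions in both samples. Regions also sat in groups: the median gap between neighbours in a gene was 12.1 kb, 25% of regions had another within 2 kb, and 358 were alone in their host.

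Of 2492 long genes, 2016 held at least 1 region (80.9%, interval 79.3 to 82.4%). The median long gene had 3 regions, or 1.89 per 100 kb of intron. The regions were unevenly spread, since 439 genes with 10 or more held 54.4% of them. Pooled over 586 Mb of intron the density was 2.23 per 100 kb, compared with 3.09 in 316 Mb of introns of shorter genes and 1.53 in 1570 Mb between genes. At the edge of the rule, Map2k4 (100055 bp) held 1 region and Wipf1 (100125 bp) 8, while Prep (99996 bp) and Vmp1 (99972 bp), just outside, held 2 and 5 of the shorter-gene class. Density fell with gene length. It was 3.09 per 100 kb in genes of 100 to 200 kb, 2.45 from 200 to 500 kb, 1.25 from 500 kb to 1 Mb and 1.11 in the 59 records of 1 Mb or longer. The last value was 0.613 without records that wholly contain another protein-coding gene of the same strand.

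Such containing records also led the count. Gm20388 (4435 kb on chromosome 8) held 301 regions, the Fgfr2 record (2961 kb on chromosome 7) 108 and Gm37240 (1391 kb on chromosome 3) 41. In all, 96 such records held 664 regions (5.07%), and their regions may belong to other genes inside them. Among the other genes, Rora held the most, 52 regions over 734 kb (chromosome 9, 68653786 to 69388246). Its regions had median signals of 1.14 and 0.850 and reached 5.19 and 4.62. Sh3pxd2a, which encodes the podosome scaffold Tks5, held 45 in 204 kb, and Wwox, an oxidoreductase gene at a common fragile site, 41 in 913 kb. Tns1 (tensin 1, a focal adhesion protein) and Slit3 (a secreted guidance cue) held 36 each, and Nav2, a cytoskeletal regulator gene, and a record of Arhgap26, a GTPase-activating protein gene, 35 each.

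Per length, the densest gene was Sh3pxd2a with 23.6 regions per 100 kb of intron, more than 10 times the pooled density. It was followed by Bcor (20.7), Nfix (20.1), Tns1 (19.5) and Ece1 (19.1), the last encoding the endothelin-converting enzyme. Mapt (16.7, microtubule-associated tau), Zbtb16 (16.5), 2900026A02Rik (16.5) and Trak1 (16.4, a mitochondrial transport adaptor) were also among the first 10. All 10 had a promoter peak in both samples, as did 78.5% of all long genes. Median signals of the regions were 1.99 and 1.32 in Zbtb16, 1.82 and 1.48 in Nfix and 1.36 and 1.49 in Ece1. The longest genes without a region were Lrp1b (2058 kb), Cntn5, Csmd3, Ccser1 and Cdh12 (1140 kb). Lrp1b encodes a large receptor of the low-density lipoprotein receptor family and Cntn5 and Cdh12 neural adhesion proteins.

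Genes of fibre structure and excitation all held regions, at a pooled density of 2.22 per 100 kb, near the 2.23 of all long genes. The 21 long genes of this list held 192 regions. The median per gene was 2.61 per 100 kb, against 1.89 over all long genes, and 13 of 21 genes were above the latter. Ank3, the gene of ankyrin-G, held 31 regions with median signals of 1.17 and 0.738. Fhod3, a formin that builds sarcomeric actin, held 21 (1.09 and 0.956), and Synpo2, a Z-disc actin-binding protein, 17 (1.70 and 1.22). Synpo2 was the densest of the list at 12.3 per 100 kb. Among the giant genes of the sarcomere, Ttn (titin) had 1 region in 279 kb with signals of 1.28 and 0.855, and Neb (nebulin) had 4, or 1.97 per 100 kb. Dmd, which encodes dystrophin and lies on the X chromosome, held 6 in 2257 kb, with median signals of 0.264 and 0.226 and none above 0.436. Its autosomal relative Utrn (utrophin) held 14 in 487 kb with 0.624 and 0.593. The lists were drawn up with earlier results of these data known, so these counts are descriptions.

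Transcription and splicing regulators of muscle were denser. Their 21 long genes held 348 regions with a median of 5.10 per 100 kb, and 19 of 21 were above the median of all long genes. Camta1, a calmodulin-binding transcription activator gene, held 35, although its record contains another gene. Nfib held 32, reaching signals of 7.55 and 8.39, and Rbfox1, a splicing factor gene of 1526 kb, held 30. The NFI family was well represented, with 21 regions in Nfia, reaching 7.10 and 6.86, and 17 in Nfix at 20.1 per 100 kb. Smad3, a transducer of transforming growth factor beta and myostatin signals, had 16 (16.1 per 100 kb), Nfatc1, a calcineurin-regulated factor, 13 (13.5) and Tead1 25 (12.0). Mef2c and Mef2a held 8 and 2 regions. Hdac9 was the sparsest of the list at 0.710 per 100 kb.

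In metabolism and the clock 18 of 19 long genes held a region, 192 in all, with a median of 4.27 per 100 kb and 14 of 19 above the median of all long genes. After Rora came Tbc1d1, a regulator of glucose transport, with 18 regions reaching 4.68 and 3.23, and Prkag2, a subunit of AMP-activated kinase, with 17 reaching 4.53 and 4.42. Ppargc1a, the coactivator of mitochondrial biogenesis, held 3 with median signals of 1.58 and 0.973.

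The matrix and fibroblast list was the densest, with 250 regions in 16 genes, a median of 7.12 per 100 kb and 14 of 16 above the median of all long genes. Sh3pxd2a and Tns1 led, followed by Col5a1, a fibrillar collagen gene, with 20 regions (14.1 per 100 kb, median signals 0.987 and 0.970). The head-to-head basement membrane collagen genes Col4a1 and Col4a2 held 14 and 16 (13.8 and 12.4 per 100 kb). The vessel list held 119 regions in 12 records, with a median of 2.50. It was led by 35 and 23 in the 2 records of Arhgap26 and 13 in Mecom, a haematopoietic and endothelial transcription factor gene. A gene's place on a list does not show in which cells its regions were open. Immune genes held 63 in 9 genes with a median of 2.84, led by Elmo1 (19) and Arhgap15 (15), regulators of Rac, and by Inpp5d (7), a phosphatase of blood cells. Their median signals, 0.604 and 0.637, were lower than those of all 13092 regions in both samples. In bulk tissue, fewer cells of a type and less open chromatin per cell cannot be told apart.

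Neuronal genes and fragile-site genes are very long, and both lists had a median density below that of all long genes, as did very long genes in general. Records of 1 Mb or longer had a median of 0.361 per 100 kb. The 25 neuronal genes, with a median length of 1211 kb, held 103 regions, a median of 0.322 per 100 kb, and 0 of 25 were above the median of all long genes. Csmd3, Cntn5, Lrp1b and Cadm2 held none. Ntm, a neural adhesion gene, held the most with 12, and Cntnap2 and Pcdh9 held 8 each, as did Ptprd and Nrxn3. The median signals of the list were 0.492 and 0.475, and 10 of 25 had a promoter peak in both samples. The 8 very long genes of common fragile sites held 89, with a median of 0.566 per 100 kb, and 7 of these 8 had a promoter peak in both samples. Wwox (4.55 per 100 kb) was above the median of all long genes, while Fhit (10 regions) and the rest were below it.

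**Figure D2:**
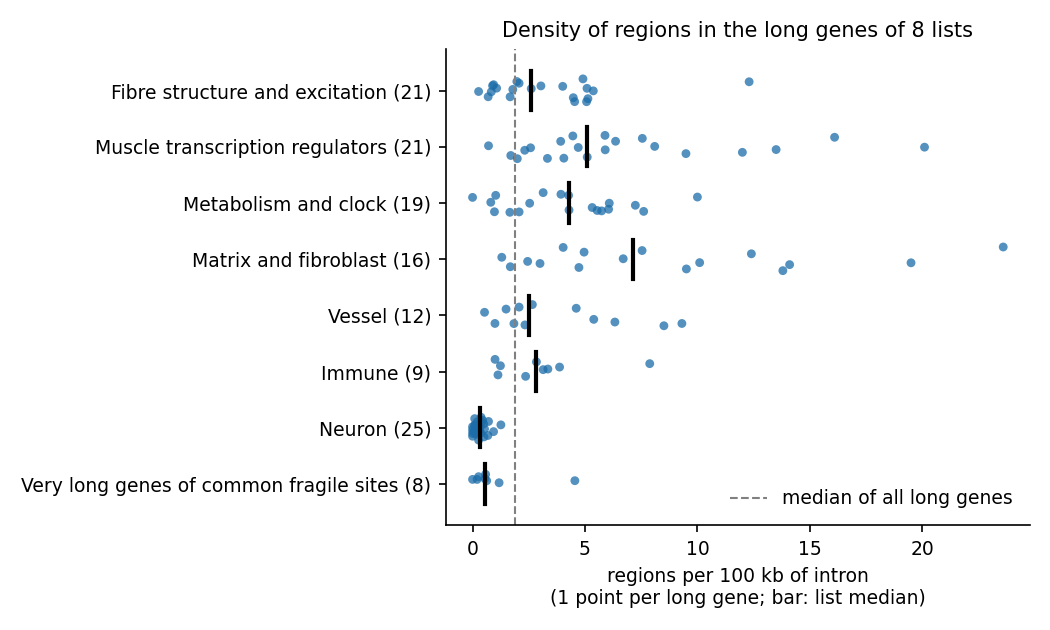
Intronic regions per 100 kb of intron (x axis) in each long gene of 8 lists (y axis, number of gene records in brackets), with 1 point per record, a bar at each list's median and a dashed line at 1.89, the median of all long genes. The medians run from 0.322 (neuron) to 7.12 (matrix and fibroblast).

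Regions were denser in genes whose promoter was open. A promoter peak in both samples was present in 1956 of 2492 long genes, and these held 2.75 regions per 100 kb. The 156 genes with a promoter peak in 1 sample held 0.893 and the 380 with none 0.699. The same gene groups, set by the promoter peaks of both samples, were also used with the intronic regions of 1 sample alone. With regions of replicate 1 the densities were 5.62 for a promoter peak in both samples and 1.67 for a peak in neither. With regions of replicate 2 they were 3.24 and 0.926. Still, 54.2% of genes with no promoter peak held a region, 725 regions in all, with median signals of 0.670 and 0.587 against 0.858 and 0.727 in genes with an open promoter. The share with a CTCF match was 8.0% in these 725 regions and 4.67% in the 11935 regions of genes with an open promoter. E-box shares were 24.4% and 24.7%.

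By distance in kb, density was highest near the host's start. In genes with an open promoter it was 6.52 per 100 kb in the first 5 kb, leaving out the 1 kb around each start site, and 2.94 from 5 to 10 kb. It was 3.16 from 50 to 100 kb and 1.87 from 800 to 4000 kb. The farthest range held 446 regions. It takes in the containing records Gm20388 and Fgfr2, with 301 and 108 regions over their whole length, and was not recomputed without them. In genes with no promoter peak the values at the same distances were 1.67, 0.667, 0.946 and 0.325, the first of these on 21 regions. By share of gene length, these genes had 0.710 in the first 10% and 1.06 in the last 10%. Genes with an open promoter had 3.16 and 2.98 there. First introns held 3307 of the 11761 regions that could be placed in an intron of the transcript used for the gene (28.1%, interval 27.3 to 28.9%), and 23.3% of the intron bases. The density was 2.70 per 100 kb in first introns and 2.10 in later ones. Median signals were alike, 0.858 and 0.744 in first introns and 0.843 and 0.704 in later ones. SP/KLF matches were found in 9.65% of regions in first introns and 6.22% in later ones, and CTCF matches in 2.99% and 5.64%.

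**Figure D3:**
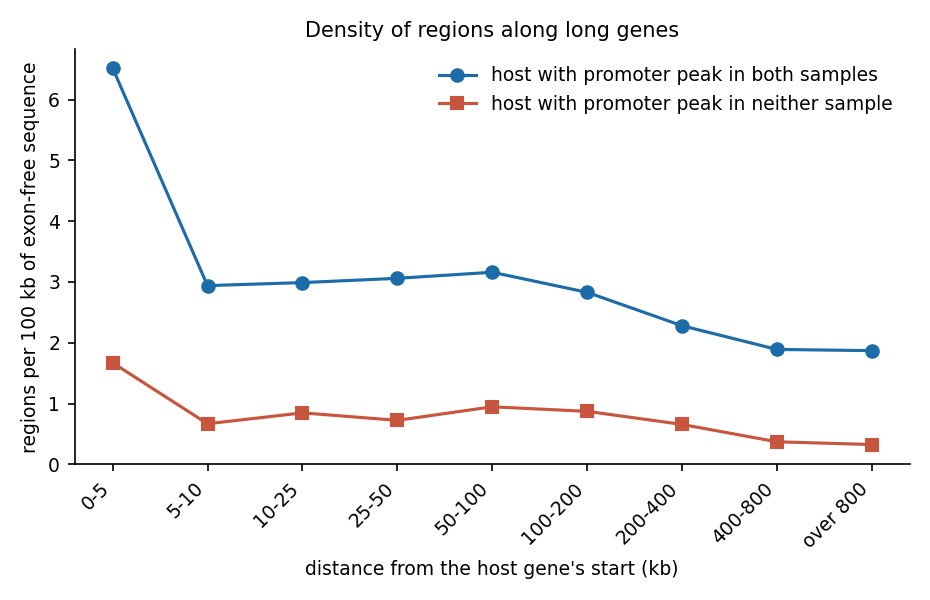
Intronic regions per 100 kb of exon-free sequence (y axis) by distance from the host gene's start in kb (x axis), for genes with a promoter peak in both samples (circles) and in neither (squares). Genes with an open promoter are above the others at every distance, and both curves are highest in the first 5 kb, at 6.52 and 1.67.

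The X chromosome held few regions. Its 117 long genes held 243 regions, or 0.857 per 100 kb, compared with 2.31 on the autosomes. Among genes with a promoter peak in both samples the values were 1.28 and 2.81. The X was lower in each sample alone, with 2.26 against 4.75 in replicate 1 and 1.14 against 2.74 in replicate 2. Median signals on the X were 0.508 and 0.425, compared with 0.853 and 0.721 on the autosomes. Introns of shorter genes on the X held 1.43 per 100 kb, fewer than on any autosome, where the lowest was 2.36 on chromosome 13. Bcor, with 23 regions, held more than any other long gene on the X. Male cells carry 1 copy of the X, and the part of copy number in these values was not tested.

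Motifs were counted in the central 200 bp of each region, on both strands. The myogenic E-box, CAGCTG, was in 24.6% of the regions (interval 23.8 to 25.3%). It was in 8.94% of 24465 windows of the same length 2000 bp to either side and in 20.6% of all shared regions. The share was 24.0% in introns of shorter genes and 13.1% at start sites. The NFI motif, TTGGCA, was in 23.7% (23.0 to 24.5%), compared with 9.64% of flanking windows, 17.6% of all shared regions and 19.8% in introns of shorter genes. The intervals of the intronic regions in long genes thus hold the shorter-gene share for the E-box and lie above it for NFI. In each sample alone the E-box share was 21.9 and 23.6% (mean 22.8% ± 1.18, SD, n = 2) and the NFI share 23.6 and 22.2% (22.9% ± 1.01). The flanking windows had a mean GC content of 44.8% against 51.5% in the regions, and the part of base composition in these differences was not tested.

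Other motifs fell into those more frequent than in the flanks and those not. AP-1, the site of Fos and Jun (TGACTCA), was in 8.23% of regions, 3.36% of flanking windows and 6.66% of all shared regions. The TEAD motif, GGAATG, bound by the effectors of Hippo signalling, was in 13.8%, 10.8% and 11.6% respectively. SP/KLF, GGGCGG, was in 7.37%, 2.59% and 21.9%, and in 52.3% of regions at start sites. The glucocorticoid receptor motif was in 1.33%, 0.360% and 1.03%. CTCF was in 4.93%, 0.168% and 5.10%, a share 29.4 times that of the flanks, compared with 2.75 times for the E-box. By contrast the MEF2 motif was in 3.28% of regions and 3.27% of flanking windows, with 2.32% of all shared regions. RUNX, TGTGGT, was in 14.7%, 15.3% and 12.5%, and forkhead, TGTTTAC, in 3.18%, 2.92% and 2.40%. The ERR motif, TCAAGGTCA, was in 0.244% of regions, below the 0.605% of flanking windows, and in 0.271% of all shared regions. The flanking windows were lower in GC content than the regions. For these motifs too, the part of base composition was not tested, so a level share may hide a difference.

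**Figure D4:**
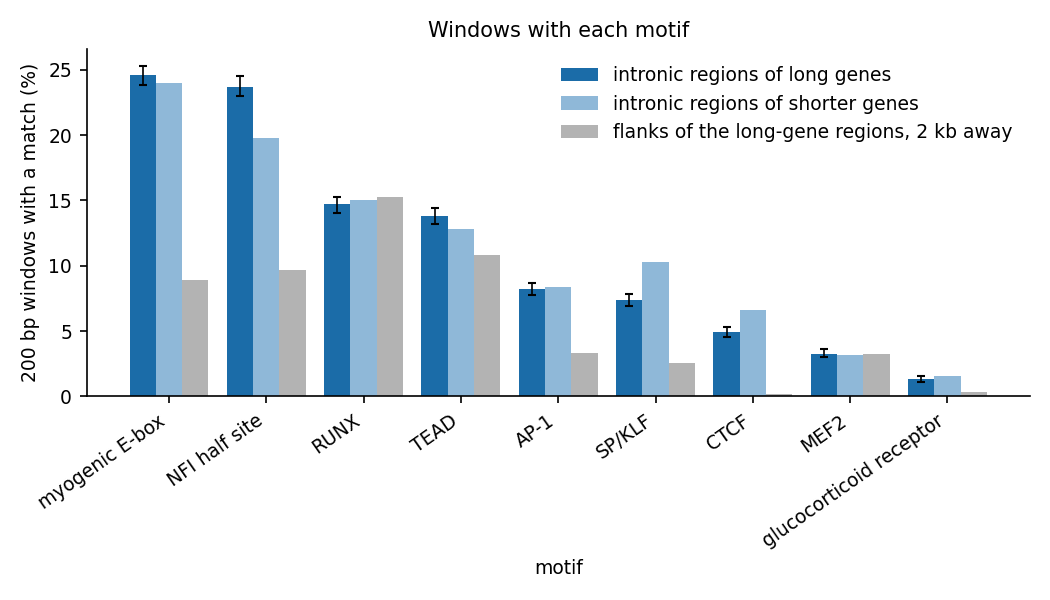
Share of 200 bp windows with a match (y axis, percent) for 9 motifs (x axis), in intronic regions of long genes with exact 95% intervals, in intronic regions of shorter genes and in flanks 2 kb from the long-gene regions. The E-box and NFI bars of the regions stand at 24.6 and 23.7%, against 8.94 and 9.64% in the flanks, while the MEF2 bars are level.

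Motifs also differed in how often they lay under a footprint of both samples. For CTCF 551 of 660 matches did (83.5%), for the NFI motif 1058 of 4110 (25.7%) and for SP/KLF 295 of 1411 (20.9%). The share was 11.2% for the myogenic E-box (499 of 4439), 5.41% for TEAD, 4.52% for AP-1, 3.86% for the glucocorticoid receptor and 2.06% for MEF2. It was lowest for forkhead, with 2 of 499 matches. Of all regions' bases, 6.83% lay under footprints of both samples. TEAD, AP-1, the glucocorticoid receptor, MEF2 and forkhead were among the motifs with a lower value. The first is a share of single bases and the others are shares of whole matches, so the measures are not alike. Regions with a CTCF match were stronger, with median signals of 1.15 and 0.939 against 0.832 and 0.704 for those without. Of them 75.2% were on the smaller list in both samples, compared with 53.5%. The E-box was in 11.9% of regions with a CTCF match and in 25.2% of those with an NFI match.

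The ratio of signals between the samples differed by host and by motif. It is given as log2 of replicate 1 over replicate 2, centred on the median of all shared regions. The median over the 13092 regions was 0.14, and 62.6% were above 0. Regions in genes of fibre structure and excitation had a median of 0.34 (79.2% above 0), muscle transcription regulators 0.26 and metabolism and the clock 0.23. Genes of common fragile sites also had 0.26. The vessel list had 0.16, the matrix and fibroblast list 0.12, the neuronal list -0.03 and the immune list -0.04. The 430 regions with a MEF2 match had a median of 0.45, with 83.7% above 0, and signals of 1.01 and 0.682 against 0.838 and 0.716 without a match. The 174 with a glucocorticoid receptor match had a median of 0.30, and the 965 with an SP/KLF match -0.03. The E-box (0.15), TEAD (0.14) and NFI (0.19) regions were near the median of all 13092. In uncentred signals the promoters of 7 of 8 muscle markers were also higher in replicate 1, the exception being Actn3 (6.06 and 6.47), and those of the 3 endothelial markers were higher in replicate 2 (0.437 to 0.766 against 0.755 to 1.05). The part of cell type shares in the ratio was not tested.

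The ratio moved with base composition. In 4 equal-sized bins of the regions by GC content, from the lowest (31.4 to 48.2%) to the highest (54.8 to 82.3%), the median was 0.25, 0.19, 0.10 and 0.03. Regions with a MEF2 match had 0.53, 0.46, 0.35 and 0.37 in the same bins, above all regions in each. Regions of fibre genes had 0.46, 0.25, 0.43 and 0.17, on 23 to 72 regions a bin. Other lists did not stay above all regions in each bin. Muscle transcription regulators had 0.45, 0.30, 0.23 and 0.03, and metabolism and the clock 0.53, 0.33, 0.17 and 0.02. The vessel list, on 20 to 38 regions a bin, had 0.63, 0.20, 0.11 and -0.16. The immune list, on 14 to 19, had 0.39, -0.14, 0.18 and -0.18. SP/KLF regions had 0.18, 0.10, -0.04 and -0.08, below all regions in each. With 2 samples, a difference between them has no replicate check.

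**Figure D5:**
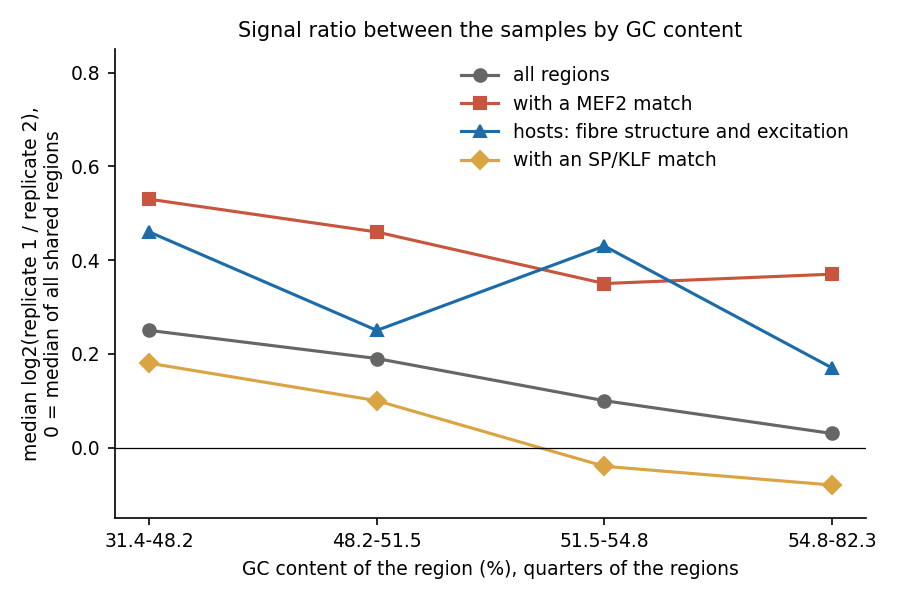
Median log2 ratio of signal, replicate 1 over replicate 2, with 0 at the median of all shared regions (y axis), in 4 equal-sized bins of the intronic regions by GC content in percent (x axis), for all regions, for those with a MEF2 or an SP/KLF match and for those in genes of fibre structure and excitation. All regions fall from 0.25 to 0.03, and the MEF2 line stays above them in each bin.

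Single regions showed the widest ratios in both directions. The 5 most in favour of replicate 1 were in Cpq, Xpr1, Tbc1d4, Dysf and Gm37240. None of these was on the smaller list in replicate 2. Their signals there were low, from 0.347 to 0.565, at percentiles 3.67 to 23.8 of all shared regions. Cpq, a carboxypeptidase gene, had signals of 2.12 and 0.380 at chromosome 15, 33330416 to 33330660. Dysf encodes dysferlin, which repairs the muscle fibre membrane, and its region in intron 17 of 54 (chromosome 6, 84096001 to 84096160) had 2.31 and 0.565. Tbc1d4, a regulator of insulin-stimulated glucose transport, had 1.65 and 0.397 in intron 8 of 18, although its strongest region reached 4.48 and 4.41. These 5 had GC contents from 39.4 to 48.2%. The 5 most in favour of replicate 2 were in Serpina1b, Tmem267, Mid1, Nexmif and Ctnna2, with GC contents from 53.2 to 70.0%. Their signals in replicate 1 were low, from 0.117 to 0.604, at percentiles 0.0631 to 24.7 of all shared regions. The Ctnna2 region had 0.294 and 0.822, and the Mid1 region 0.604 and 1.82.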

How the data were processed

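DNase-seq was measured in 2 gastrocnemius samples of 1 group. The deposited peak lists give each peak a signal (column 7) in the authors' unit, whose scale and depth are not given. The deposited footprint files carry a p-value column that is 0.01 on every line and was not used. Peaks and footprints were called per sample on mm10. The aligner and caller are not given in the sources used here. Both alleles were read against the reference, and alleles were not separated.

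The larger peak list of each sample was used. Genes were the 21938 protein-coding records of GENCODE M21, and sequence came from the matching RefSeq assembly. Densities are regions per 100 kb of exon-free, sequenced bases over 1 kb from protein-coding start sites. A gene had a promoter peak in a sample where a peak of that sample lay within 1 kb of a start site of the gene. Its promoter was called open where both samples had such a peak, also where regions of 1 sample alone were counted. Intron numbers follow 1 transcript per gene, and 1331 regions lay outside the introns of that transcript. Flanks were 200 bp windows 2000 bp to either side. Motifs were exact consensus matches, with CTCF, MEF2 and the glucocorticoid receptor matched to degenerate consensus sequences. In all, 17 motifs were searched on both strands, each on its own, so that matches of different motifs may overlap. The 95% intervals (Clopper-Pearson, exact) reflect counting error only. An SD over n = 2 measures how far these samples differ, which may be technical. The scripts (Python 3.11.15, numpy 2.4.6, pandas 2.3.3, scipy 1.17.1) were checked on simulated data.

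The regions, gene lists and motifs were chosen with earlier results of these data known. Genes named were the 10 long genes with most regions, the 10 densest with at least 5 regions, the 5 longest with none, and from each of the 8 lists the 3 with most and up to 3 with none. Regions named were the 10 of highest mean rank, the 5 widest, the 5 farthest from a start site and the 5 most in favour of each sample. Some items that this rule names are not reported here. Other genes named were chosen after their values were seen. Alternatives tried were the smaller lists, each sample alone, the stronger 50% of peaks, a 50% reciprocal overlap, genes of 200 kb or longer, a distance of 5 kb, containing records left out, footprints wholly inside regions and 100 bp motif windows.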

Additional observations from a re-analysis of the deposited data

How the results depend on the processing

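No paired analysis was possible because only 1 group was measured. The number of regions, 13092, was 7195 with the smaller lists, 5879 with the stronger 50% of peaks and 7583 in genes of 200 kb or longer, and ran from 15616 to 27129 with 1 sample alone. The density per 100 kb of intron, 2.23, was 1.23 with the smaller lists and 1.00 with the stronger 50% of peaks, and ran from 2.66 to 4.63 with 1 sample alone. The share of long genes with a region, 80.9%, was 69.4% with the smaller lists and 58.4% with the stronger 50% of peaks, and ran from 84.8 to 92.7% with 1 sample alone. The share in first introns, 28.1%, was 29.9% with the stronger 50% of peaks, 25.9% in genes of 200 kb or longer, 25% over 5 kb from start sites and 26.5% without containing records, and ran from 27.4 to 27.9% with 1 sample alone. The share with a footprint in both samples, 87.0%, ran from 41.6 to 71.5% with 1 sample alone and was 86.9% for footprints wholly inside. Fewer peaks or genes enter most of these, and otherwise the cause was not tested. In 100 bp windows the E-box was in 15.1% of regions and 4.40% of flanks, NFI in 15.7 and 4.87%, and CTCF in 4.73 and 0.0777%. The ratio between samples by GC content, and the ranking of genes without containing records, were chosen after seeing the data; for SP/KLF the overall ratio of -0.03 was 0.18 and 0.10 in the 2 bins of lower GC content, the opposite sign. Depth is unknown, so weak regions of replicate 1 that replicate 2 lacks cannot be told from regions it was too shallow to show.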
